A study of Mus musculus with 15 samples.

Results

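Cytosolic ribosomal protein genes were followed on 1-colour Agilent expression arrays across 5 groups of RAW264.7, an established mouse line of macrophage-like cells. The genes were chosen by name, as all non-control array rows whose gene symbol has the form of a cytosolic ribosomal protein of the large subunit (Rpl), the small subunit (Rps), the stalk (Rplp0, Rplp1, Rplp2) or Rpsa. This gave 84 of the 36870 gene names on the array, on 183 probes. Of the 84 genes, 79 had a probe that could be tested, among 19506 tested genes in all, and each was represented by its brightest tested probe. The 5 genes left untested were Rpl37, which was above background on 0 arrays, the paralogs Rpl10l, Rpl39l and Rpl3l, also on 0 arrays, and Rps4l, on 2 arrays. The rule does not take in some genes that also encode ribosomal proteins, such as Fau and Rps3a1.

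The groups, with 3 arrays each, were dexamethasone (DEX) and fluticasone furoate (FF), both synthetic glucocorticoids, VSG158 and VSG159, glucocorticoids known here only by these codes, and vehicle (labelled EtOH, DMSO). Steroids were given at 100 nM for 1 h before 1 ug/ml LPS (lipopolysaccharide, which activates macrophages) for 16 h. The treatment protocol with LPS is attached to every sample, while the vehicle labels name only the solvents. The labels do not say that replicates were separate cultures, and the series text calls treatments duplicated where the labels give 3 replicates, so p-values measure a spread between samples that may be technical.

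All 11 measured macrophage markers, Cd68, Lyz2 and Adgre1 among them, and all 7 LPS-response genes, such as Nos2 and Il1b, were well above background on all 15 arrays, vehicle included. Of the markers of other cell types, 1 of 6 fibroblast, 0 of 5 epithelial, 2 of 5 T cell, 0 of 4 B cell, 2 of 5 neutrophil and 0 of 4 endothelial genes were so. On every array, 39.6% to 50.4% of spots were well above background and 0 spots were saturated; the brightest ribosomal protein spot reached 50.8% to 77.3% of the saturation value. All DEX and FF arrays, with VSG159 replicate 3, were on slide 2. The other VSG159 arrays and all of VSG158 and vehicle were on slide 1, so neither DEX nor FF was hybridised on a slide that also carried vehicle. All 4 comparisons with vehicle use the same 3 vehicle arrays.

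A ribosome is built from ribosomal RNA and a near-fixed set of proteins, each normally needed in equal amount, and most of these proteins are encoded by a single functional gene with many processed pseudogenes elsewhere in the genome. Their mRNAs are abundant and long-lived, and mammalian ones begin with a run of pyrimidines, the 5′ terminal oligopyrimidine tract, through which mTOR signalling and Larp1 govern their translation. A few genes have a paralog. Rps27l, a close relative of Rps27, is known in human cells as a p53-inducible gene.

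The sequences below show the probes on which the results turn. The Rps27l probes are shown because this gene moved most among the genes' brightest probes, both placed in pieces over a longer genomic span (mm9, chromosome 9, plus strand, chr9:66795486-66797176 for the brightest and chr9:66793986-66794695 for the second), with a probe of its partner Rps27 for comparison. That Rps27 probe was placed by the array design at chr9:114891672-114891731 on the minus strand, close to the brightest Rps27 probe, whereas RefSeq puts the Rps27 gene on chromosome 3, so a near-identical copy may share its signal.
Rps27l, brightest probe: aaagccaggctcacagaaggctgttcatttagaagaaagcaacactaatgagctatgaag
Rps27l, second probe: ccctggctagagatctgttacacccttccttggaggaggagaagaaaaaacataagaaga
Rps27, second-brightest probe: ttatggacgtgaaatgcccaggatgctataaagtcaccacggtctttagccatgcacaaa

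For 2 other genes, a pair of probes is shown because 1 probe of each differed more from vehicle. As described below, the background filter decided that difference. With DEX the brightest probe of each gene was called higher too, by less. One probe of each pair, in capitals, was designed to a stretch that lies in the gap of its partner, that is between the ends of a probe, in lower case, whose 60 bases are split over a longer genomic span. The Rps24 probe in capitals lies likewise in the gap of another Rps24 probe.
Rpl13, gap probe (mm9, chr8:125628690-125628749, plus strand): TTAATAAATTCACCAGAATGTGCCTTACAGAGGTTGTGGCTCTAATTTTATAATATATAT
Rpl13, brightest probe (mm9, chr8:125627816-125628964, plus strand): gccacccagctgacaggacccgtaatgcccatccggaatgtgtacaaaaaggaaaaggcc
Rps13, gap probe (mm9, chr7:123475113-123475172, minus strand): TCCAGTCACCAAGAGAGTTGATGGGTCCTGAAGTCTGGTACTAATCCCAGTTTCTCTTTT
Rps13, brightest probe (mm9, chr7:123475080-123475934, minus strand): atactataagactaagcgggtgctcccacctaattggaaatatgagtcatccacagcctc
Rps24, gap probe (mm9, chr14:25314669-25314728, plus strand): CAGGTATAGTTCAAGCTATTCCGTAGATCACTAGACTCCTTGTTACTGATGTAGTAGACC

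Windows of 30 bases around RefSeq starts (GRCm38.p6, from 12 bases before the start to 18 bases from it) show the pyrimidine run, in capitals, in 4 genes described below. RefSeq starts were at hand for 59 of the tested genes, with 70 starts. A run of at least 8 C or T letters on the gene's own strand, reaching within 10 bases of the start, was found at 31 of the 70 starts (44.3%), at 9 of 75 starts of mitochondrial ribosomal protein genes (12%) and at 13.7% of all 32851 starts. The run is a description of these letters, and an annotated start can be off by some bases.
Rps27l (chr9:66946074-66946103, plus strand): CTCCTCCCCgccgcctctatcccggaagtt
Rps27 (chr3:90213631-90213660, minus strand): tccgctttcgCTCCTTTCCggcggtgacga
Rps6 (chr4:86857350-86857379, minus strand): cggaagtcgggCCTCTTTTTCgtgacgcct
Rpl13a (chr7:45128728-45128757, minus strand): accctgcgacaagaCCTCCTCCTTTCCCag

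The first question was whether any of the 4 steroids moved the ribosomal protein genes of these cells. Few were called and the changes were small. In such bulk RNA, fewer expressing cells and less RNA per cell cannot be told apart. Levels below are scaled log2 signals, that is each array's log2 processed signals less their 75th percentile, and a gene was called when its limma p-value, Benjamini-Hochberg adjusted over all tested genes, was under 0.05. With DEX, 14 of 79 genes rose and 2 fell (20.3%), beside 46.3% of all genes called. With FF, 3 rose and 1 fell (5.06%), beside 42.2% of all genes. With VSG158, 2 rose and 1 fell (3.8%), beside 44.2%, and with VSG159, 3 rose and 1 fell (5.06%), beside 44.1%. Against all genes called in 1 direction, the shares of members higher were 17.7%, 3.8%, 2.53% and 3.8% with DEX, FF, VSG158 and VSG159, beside 23.2%, 20.9%, 19.7% and 19.1% of all genes. The shares lower were 2.53%, 1.27%, 1.27% and 1.27%, beside 23.1%, 21.4%, 24.5% and 25% of all genes.

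The median change of the 79 genes with DEX, FF, VSG158 and VSG159 was 0.08, -0.02, -0.02 and 0.02, beside medians over all genes of 0.03, -0.05, -0.06 and -0.06. The median size of a change, without its sign, was 0.14, 0.10, 0.12 and 0.09 for the ribosomal protein genes, beside 0.52, 0.45, 0.49 and 0.51 for all genes. No ribosomal protein gene differed 2-fold or more with any steroid, while 23.1%, 19.5%, 20.6% and 22.1% of all genes did. The 95% confidence interval of the change lay wholly within 1.5-fold in either direction for 67, 74, 73 and 74 of 79 genes (84.8% to 93.7%), and for 22.4%, 22.5%, 22% and 21.4% of all genes. Ribosomal protein probes also had smaller errors, with a median standard error of 0.10 beside 0.17 over all genes.

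**Figure D1:**
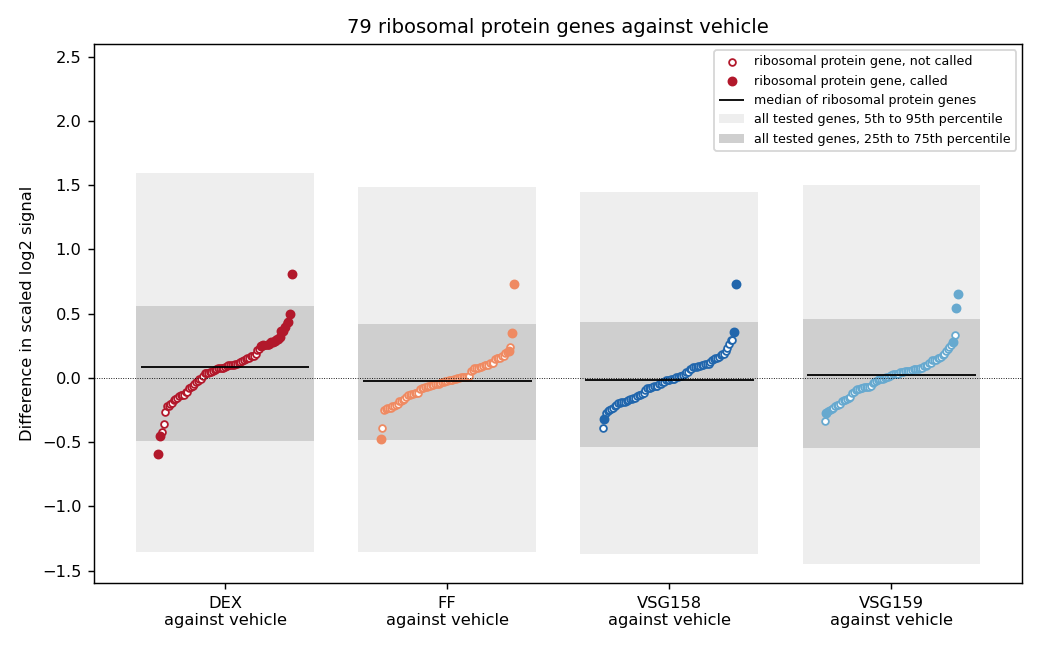
Difference in scaled log2 signal (y axis) of each of 79 ribosomal protein genes, ordered by size, in the 4 comparisons with vehicle (x axis). Filled points are called genes, open points are not called, the black line is their median, and the grey bands span the quartiles and, lighter, the 5th to 95th percentile of all tested genes. The members lie between -0.59 and 0.81 in every comparison, most within the inner band, with Rps27l as the highest point of each.

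Ribosomal protein probes are among the brightest on the array, so they were also set beside other bright genes. Of 855 other genes with a mean log2 signal of 16 or more, 37.2%, 34%, 36.5% and 35.3% were called with DEX, FF, VSG158 and VSG159. Of the 76 ribosomal protein genes this bright, 14, 3, 2 and 3 were called (18.4%, 3.95%, 2.63% and 3.95%). The median size of a change was 0.14, 0.10, 0.11 and 0.09 for these members, and 0.24, 0.21, 0.23 and 0.23 for the other bright genes. The share called among ribosomal protein genes was below that of the other bright genes in each comparison, a difference that was not tested. Above the limit of 16 the sets were not matched in brightness.

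The genes were also sorted by place in the ribosome. The 3 stalk genes and 4 genes with a paralog symbol (Rps27l, Rpl7l1, Rpl22l1 and Rpl32l) were kept apart from the subunits. Of those 4, 1 rose in each comparison, namely Rps27l, so it is not in the small-subunit counts. With DEX, 8 of 42 large-subunit genes rose and 1 fell (median 0.10), and 5 of 30 small-subunit genes rose and 0 fell (median 0.08). With FF these counts were 1 and 0 of 42 (median -0.02) and 1 and 0 of 30 (median -0.03). With VSG158, 0 of 42 large-subunit genes were called (median -0.01) and 1 of 30 small-subunit genes rose (median -0.03). With VSG159, 1 large-subunit gene rose and 1 fell (median 0.03), and 1 small-subunit gene rose (median 0.01). A difference between them was not tested.

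The genes called in all 4 comparisons were Rps27l and Rps2. Over the 4 comparisons, 61 of 79 genes were never called and 18 were called at least once, with 0 genes called in opposite directions by different steroids. The F test over the 5 groups called 5 of 79 genes (6.33%), namely Rps27l, Rps2, Rplp0, Rpl22 and Rpl13, beside 45.1% of all genes.

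Rps27l, the paralog of the small-subunit protein gene Rps27, had the largest rise in each comparison. Its scaled log2 signal was 5.43, 5.55 and 5.61 on the DEX arrays, 5.34, 5.52 and 5.52 on the FF arrays, 5.60, 5.45 and 5.33 on the VSG158 arrays, and 5.41, 5.37 and 5.35 on the VSG159 arrays, against 4.73, 4.58 and 4.86 on the vehicle arrays. All 12 steroid arrays lay above all 3 vehicle arrays. The log2 change was 0.81 with DEX (SE 0.10, adjusted p = 4.7e-05, limma), 0.73 with FF (SE 0.10, adjusted p = 7.99e-05, limma), 0.73 with VSG158 (SE 0.10, adjusted p = 8.46e-05, limma) and 0.65 with VSG159 (SE 0.10, adjusted p = 0.000204, limma), which is 1.75-fold, 1.66-fold, 1.66-fold and 1.57-fold.

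The second Rps27l probe gave 5.15, 5.00 and 5.17 on the DEX arrays, 4.78, 4.93 and 5.08 on the FF arrays, 5.00, 5.07 and 4.93 on the VSG158 arrays and 4.92, 4.77 and 4.73 on the VSG159 arrays, against 4.03, 3.97 and 4.18 on the vehicle arrays. It rose by 1.05, 0.87, 0.94 and 0.75 with DEX, FF, VSG158 and VSG159. The probes of Rps27l shown above therefore moved the same way. With slide as a fixed block Rps27l changed by 0.85, 0.77, 0.73 and 0.67 and stayed called, and within slide 1 alone it changed by 0.73 with VSG158 and 0.67 with VSG159. In a model with slide and array position together, its changes of 0.60, 0.59, 0.66 and 0.53 stayed called with VSG158 alone (adjusted p = 0.7, 0.45, 0.0139 and 0.228, limma).

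Its partner Rps27, measured by a brighter probe than the one printed, was not called. Rps27 had 7.90, 8.05 and 8.14 on the DEX arrays, 7.85, 7.94 and 7.88 on the FF arrays, 7.99, 7.95 and 7.78 on the VSG158 arrays and 7.85, 7.87 and 7.99 on the VSG159 arrays, against 7.97, 8.10 and 8.23 on the vehicle arrays. Its changes were -0.07, -0.21, -0.20 and -0.20, none called (adjusted p = 0.585, 0.104, 0.124 and 0.113, limma), and the DEX, VSG158 and VSG159 arrays overlapped vehicle while the FF arrays lay just below it. The difference between the changes of Rps27l and Rps27 was not tested.

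**Figure D2:**
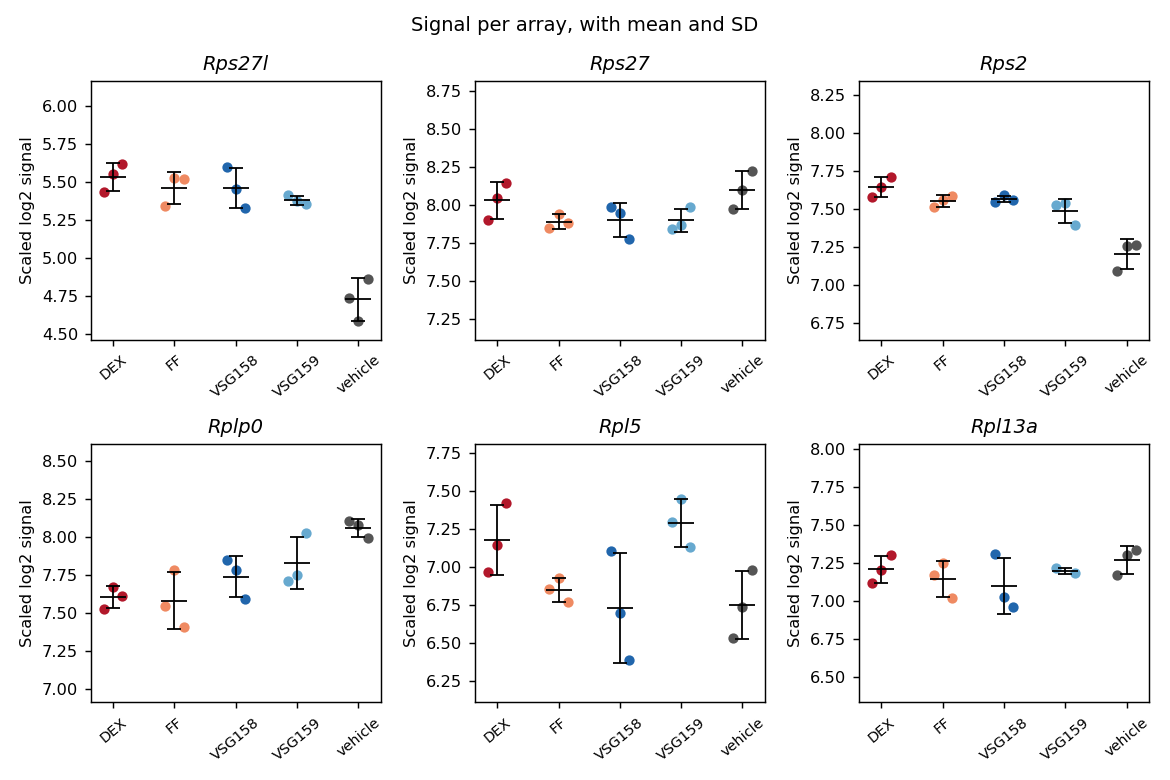
Scaled log2 signal (y axis, each panel spanning the same range) on each array of Rps27l, Rps27, Rps2, Rplp0, Rpl5 and Rpl13a, by group (x axis: DEX, FF, VSG158, VSG159, vehicle), with points for arrays and the mean and SD as bars (3 arrays each, 2 for Rpl13a in VSG159). Rps27l and Rps2 lie above vehicle in all 4 steroid groups, while Rpl13a overlaps it in every group and Rps27 in all but FF.

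The other paralogs gave no call. Rpl22l1 changed by 0.01, -0.02, 0.10 and -0.09 with DEX, FF, VSG158 and VSG159. Its partner Rpl22, an RNA-binding large-subunit protein, had 6.42, 6.36 and 6.44 on the DEX arrays, against 5.97, 5.98 and 6.18 on the vehicle arrays, without overlap, and rose by 0.37 (SE 0.09, adjusted p = 0.00541, limma), with 0.19, 0.23 and 0.06 in FF, VSG158 and VSG159, not called. Rpl7l1, the dimmest of the chosen probes, changed by 0.22, 0.24, 0.29 and 0.23 without a call, beside 0.10, -0.07, -0.07 and 0.02 for Rpl7. Of the partners of the untested paralogs, Rpl3, a protein at the catalytic centre of the large subunit, changed by 0.13, 0.09, 0.10 and 0.04, and Rpl39, of the peptide exit tunnel, by -0.20, -0.18, -0.19 and -0.26, none called.

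Rps2, a small-subunit protein at the mRNA entry channel, had 7.58, 7.64 and 7.71 on the DEX arrays, 7.51, 7.56 and 7.59 on the FF arrays, 7.55, 7.59 and 7.56 on the VSG158 arrays and 7.52, 7.54 and 7.40 on the VSG159 arrays, against 7.09, 7.26 and 7.26 on the vehicle arrays. No steroid array overlapped vehicle. It rose by 0.44, 0.35, 0.36 and 0.28 (SE 0.08 each, adjusted p = 0.000604, 0.00274, 0.00218 and 0.01, limma). With slide and position both fitted, these changes were 0.09, 0.14, 0.22 and 0.07, none called. With median scaling they were 0.41, 0.40, 0.30 and 0.35, none called either (adjusted p = 0.15, 0.19, 0.317 and 0.229, limma). With VSG159 the call was also lost without a filter on dim probes and in a fit of these groups alone (adjusted p = 0.0883 and 0.103, limma).

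Of the stalk, the flexible arm of the large subunit that recruits translation factors, 1 of 3 genes fell with DEX, FF and VSG158 each and 0 with VSG159 (medians -0.14, -0.25, -0.26 and -0.15). Rplp0, its base, had 7.53, 7.67 and 7.61 on the DEX arrays, 7.54, 7.78 and 7.41 on the FF arrays, 7.85, 7.78 and 7.59 on the VSG158 arrays and 7.71, 7.74 and 8.02 on the VSG159 arrays, against 8.10, 8.07 and 7.99 on the vehicle arrays. All DEX, FF and VSG158 arrays lay below vehicle, while VSG159 overlapped it. It fell by 0.45 with DEX (SE 0.12, adjusted p = 0.00778, limma), by 0.48 with FF (adjusted p = 0.00573, limma) and by 0.32 with VSG158 (adjusted p = 0.0446, limma), and differed by -0.23 with VSG159 (adjusted p = 0.134, limma). The VSG158 call was lost without any 1 of 10 of the 15 arrays (adjusted p 0.0523 to 0.148), among them each vehicle array. It was also lost within the fit of these groups alone (adjusted p = 0.0832, limma). Of 29 alternative settings, left-out arrays included, 11 kept the VSG158 call. With median scaling the DEX and FF calls of Rplp0 were lost (adjusted p = 0.17 and 0.245, limma), as with slide and position (0.893 and 0.615), and that with FF also after normexp and in the deposited value table (0.275 and 0.401). The other stalk genes were not called, with changes of -0.13, -0.18, -0.26 and -0.01 for Rplp1 and -0.14, -0.25, -0.14 and -0.15 for Rplp2. Rplp0 is often used as a reference gene in PCR.

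Other members used as PCR reference genes were not called. Rpl13a changed by -0.06, -0.12, -0.17 and -0.07 with DEX, FF, VSG158 and VSG159 (in VSG159 over 2 arrays, since 1 spot was marked an outlier), Rpl32 by -0.08, -0.12, -0.16 and -0.08, and Rps18 by -0.11, 0.01, -0.09 and -0.21, none called. Rps18 changed sign and was called higher under other scalings, by 0.24 with DEX and 0.31 with VSG158 after normexp and quantile normalization and by 0.29 and 0.28 in the deposited value table. The member with the narrowest range over the 15 arrays was Rps26, which spanned 0.14 log2 units and changed by -0.03, -0.05, -0.02 and -0.04.

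Members with known roles outside the ribosome were mostly not called. Rpl5 and Rpl11 bind Mdm2 together with the 5S ribosomal RNA. Rpl5 had 7.30, 7.44 and 7.13 on the VSG159 arrays, against 6.53, 6.73 and 6.98 on the vehicle arrays, without overlap, and rose by 0.54 (SE 0.18, adjusted p = 0.0307, limma). With DEX, FF and VSG158 it differed by 0.43, 0.10 and -0.02, not called, and its VSG158 arrays ran from 6.39 to 7.10. The Rpl5 call with VSG159 was lost within slide 1 (0.62, adjusted p = 0.0656, limma). Leaving out any 1 of vehicle 1, vehicle 2, VSG159 1 or VSG159 2 also ended it (adjusted p 0.0714 to 0.116). In all, 18 of 29 alternative settings, left-out arrays included, kept this call. Rpl11 changed by 0.17, 0.12, 0.16 and 0.07. Rps6, the small-subunit target of S6 kinase, changed by 0.08, -0.06, -0.13 and 0.14. Rps3, which also acts in DNA repair, changed by 0.14, -0.02, -0.03 and 0.07. Rpsa, also known as a laminin receptor, changed by 0.04, 0.20, 0.14 and -0.07. Rps27a, made as a fusion to ubiquitin, changed by -0.26, -0.13, -0.24 and -0.25. None of these 5 was called.

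The 16 calls with DEX were the most of any steroid. The largest rise after that of Rps27l was of Rps4x, an X-linked small-subunit gene, with 7.50, 7.53 and 7.65 on the DEX arrays, against 6.85, 7.02 and 7.34 on the vehicle arrays, a rise of 0.50 without overlap (SE 0.13, adjusted p = 0.0093, limma). Its second bright probe changed by 0.09 and was not called. Averaged over all tested Rps4x probes, the change with DEX was -0.0030, not called, so the rise rests on the brightest probe. Further rises included those of Rps2 (0.44), Rpl22 (0.37), Rpl15 (0.36), Rpl13 (0.30) and Rps13 (0.28). Smaller rises, those of Rpl36, Rpl23a, Rpl24, Rpl8, Rps7 and Rpl38, were called too; these genes rose by 0.25 to 0.32, and Rpl36 arrays overlapped between the groups. Rpl34 fell the most, with 6.01, 5.69 and 5.71 on the DEX arrays, against 6.52, 6.34 and 6.32 on the vehicle arrays, by 0.59 (SE 0.16, adjusted p = 0.01, limma). The 16 genes had 10 other bright probes, and 3 of these gave the same call, while 4 shared the sign and 3 opposed it, without a call.

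The DEX calls varied with the array and with the slide. The median over the ribosomal protein genes was 7.65, 7.83 and 7.98 on the DEX arrays, against 7.67, 7.74 and 7.85 on the vehicle arrays, so the groups overlapped on it. Without DEX replicate 3 the count was 8 genes (5 higher and 3 lower), without vehicle replicate 1 it was 7 and without vehicle replicate 2 it was 9. With slide as a fixed block 7 rose and 9 fell, with slide as a random block 9 rose and 2 fell, and with slide and position together 0 were called. With median scaling Rps27l was the 1 gene called. The part of slide in the DEX and FF results cannot be told apart from the treatment beyond the link through VSG159 replicate 3.

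With FF the called genes were Rps27l, Rps2, Rpl13 (0.21, adjusted p = 0.0468, limma) and Rplp0. The Rpl13 call was lost without any 1 of 12 of the 15 arrays (adjusted p 0.0562 to 0.192), the others being vehicle 3, VSG158 3 and VSG159 3. With FF and slide as a fixed block, 2 genes rose and 6 fell. Without VSG159 replicate 3, 3 rose and 4 fell with FF. With VSG158, which lies wholly on slide 1 with vehicle, the called genes were Rps27l, Rps2 and Rplp0, 2 rose and 1 fell within that slide, and without vehicle replicate 3 there were 7 calls, all higher. With VSG159 the called genes were Rps27l, Rpl5, Rps2 and Rpl10, a late-joining large-subunit protein. Rpl10 had 8.05, 8.01 and 8.26 on the VSG159 arrays, against 8.38, 8.39 and 8.36 on the vehicle arrays, without overlap, and fell by 0.27 (SE 0.09, adjusted p = 0.0337, limma). This call was lost without any 1 of the vehicle arrays or of VSG159 1 and VSG159 2 (adjusted p 0.0611 to 0.123), and under each other scaling (0.211 to 0.545). Without VSG159 replicate 3, which lay on the other slide, VSG159 gave 5 rises and 7 falls, with slide as a fixed block likewise 5 and 7, and without any 1 of vehicle 1, vehicle 2, VSG159 1 or VSG159 2 there were 2 calls.

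**Figure D3:**
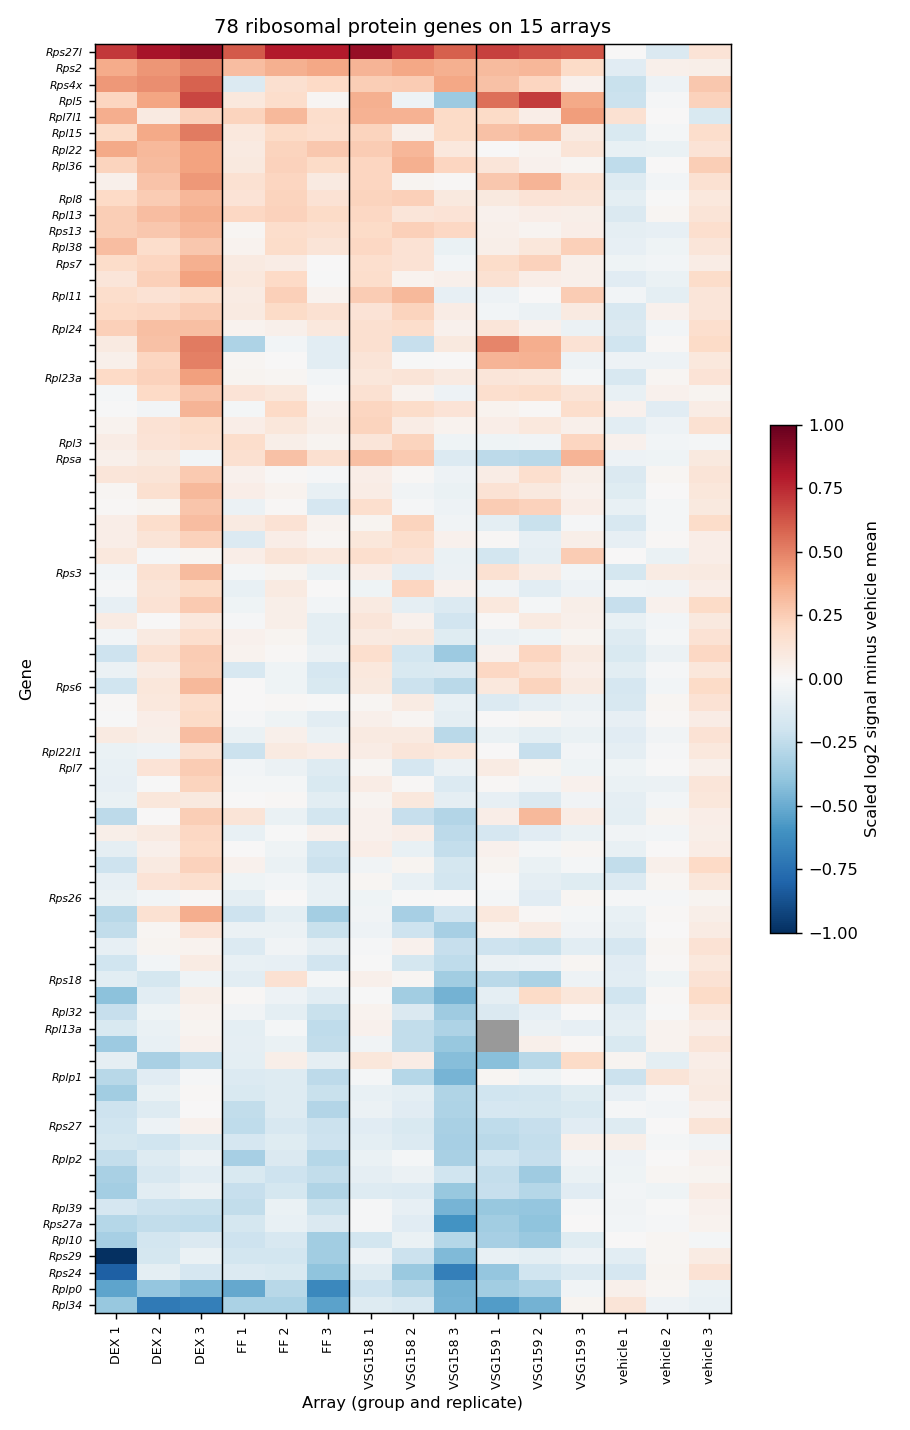
Scaled log2 signal minus the vehicle mean (colour) of 78 of the 79 ribosomal protein genes (rows, ordered by their mean over the steroid arrays, with only some genes labelled) on the 15 arrays (columns, DEX, FF, VSG158, VSG159, vehicle). Rps27l and Rps2 are above vehicle throughout, Rps29 and Rps24 are low on DEX replicate 1, and most other differences run along single arrays; grey marks a missing value.

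The next question was whether the steroids differed from each other on these genes, all at 100 nM. Of 79 genes, 0 were called for FF against DEX, for VSG158 against DEX, for VSG159 against DEX and for VSG158 against VSG159 by limma, beside 4.14%, 1.99%, 5.55% and 0% of all genes. At an unadjusted p under 0.05 (limma) there were 5, 1, 11 and 2 genes. The share of all genes under this limit was not counted, so these counts are no result about the members. The smallest p for FF against DEX was that of Rps4x (-0.42, adjusted p = 0.0931, limma), for VSG158 against DEX that of Rpl5 (-0.45, adjusted p = 0.243, limma), for VSG159 against DEX that of Rpl22 (-0.31, adjusted p = 0.0634, limma) and for VSG158 against VSG159 that of Rpl5 (-0.56, adjusted p = 0.804, limma). The 95% interval of the difference lay within 1.5-fold for 74, 75, 75 and 73 of 79 genes. Median differences of the 79 genes were -0.09, -0.09, -0.06 and 0.01, beside -0.03, -0.07, -0.08 and 0.03 over all genes. The missing calls do not show that the compounds act alike on these genes.

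Some dim probes of the same genes rose where the bright ones did not. The split into dim and bright was made after the values were seen, at a mean log2 signal of 11, since 0 tested probes of these genes lay between 10.8 and 13.1. Below it were 15 tested probes of 15 genes and above it 155. Of the dim probes, 4 were well above background on 0 vehicle arrays, so the filter decided that they differ, and they are left out of the counts. Of the other 11, 5 were called higher and 2 lower with DEX, 5 and 1 with FF, 5 and 0 with VSG158 and 4 and 1 with VSG159. Over all probes this dim and above background in vehicle, 16.6%, 17%, 15.3% and 15% were higher and 30.8%, 24.8%, 30.8% and 29.4% lower. The medians were 0.22, 0.27, 0.29 and 0.30 for these 11 probes and 0.08, -0.02, -0.01 and 0.00 for the bright ones. The 11 include the chosen probe of Rpl7l1, a gene without a bright probe to set beside it.

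Dim probes of Rpl10a, Rpl12, Rpl6 and Rpl41 were above background in vehicle too. The Rpl12 probe had 0.26, 0.27 and 0.42 on the DEX arrays, 0.21, 0.21 and 0.24 on the FF arrays, 0.30, 0.27 and 0.30 on the VSG158 arrays and 0.16, -0.11 and 0.39 on the VSG159 arrays, against -0.82, -1.22 and -1.21 on the vehicle arrays, with changes of 1.40, 1.30, 1.37 and 1.23. All 12 steroid arrays lay above all 3 vehicle arrays. The Rpl6 probe changed by 1.33, 1.46, 1.42 and 1.34, the Rpl10a probe by 0.95, 0.88, 0.98 and 0.77, and the Rpl41 probe by 0.67, 1.13, 0.82 and 0.82, all called. With slide as a fixed block the Rpl41 change with DEX was 0.06 and the Rpl10a changes with DEX and FF were 0.46 and 0.39, none called (adjusted p = 0.807, 0.0585 and 0.107, limma). With median scaling the Rpl41 calls with DEX and VSG158 were lost (adjusted p = 0.103 and 0.0593, limma). Of the 2 such dim probes called lower with DEX, 1 was of Rpl3. It went down by 0.95 with DEX, 0.46 with FF and 0.35 with VSG159, the last 2 not called under median scaling.

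Dim probes of Rpl13, Rps12, Rps13 and Rps24 were not well above background on any vehicle array. They entered the test only through the steroid groups, so they had to differ, and their changes are given as bounds: the steroid mean over the higher of the vehicle signal and the lowest signal well above background. The Rps24 gap probe had -2.37, -2.42 and -3.06 on the DEX arrays, -3.34, -2.90 and -2.70 on the FF arrays, -2.68, -3.67 and -2.57 on the VSG158 arrays and -2.98, -3.05 and -2.51 on the VSG159 arrays, against -5.35, -5.11 and -4.95 on the vehicle arrays. The vehicle values are not well above background, so this separation follows from the filter. It was at least 3.75-fold, 2.91-fold, 2.92-fold and 3.2-fold higher with DEX, FF, VSG158 and VSG159, and the Rpl13 gap probe at least 3.2-fold, 3.33-fold, 2.14-fold and 2.5-fold. The Rps13 gap probe was at least 1.83-fold, 2.16-fold, 2.04-fold and 2.02-fold higher, and the Rps12 probe at least 1.94-fold, 1.89-fold, 2.02-fold and 1.91-fold. Since the filter decided these differences, a call of such a probe is no evidence of a change. Some calls were lost even so. With slide as a fixed block the Rps13 probe was not called with DEX or FF (adjusted p = 0.188 and 0.126, limma). After normexp the Rps12 probe was not called with VSG158 (adjusted p = 0.0547, limma). In VSG158 each of these dim probes was well above background on 2 of 3 arrays.

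The brightest probes of these 4 genes did not show changes of this size. That of Rps24 had 7.62, 8.34 and 8.27 on the DEX arrays, against 8.27, 8.46 and 8.58 on the vehicle arrays (-0.36, adjusted p = 0.15, limma). Those of Rpl13 and Rps13 rose with DEX by 0.30 and 0.28, and that of Rps12 differed by -0.17 and was not called. Whether placement in a gap goes with a rise was not tested, and the filter decided the gap probes of Rpl13, Rps13 and Rps24. Of 6 probes so placed, that of Rpl7a was not called (-0.51 with DEX), that of Rps19 was not above background on any array, and that of Rpsa was a bright probe and was not called. The transcripts that the dim probes detect were not identified here.

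**Figure D4:**
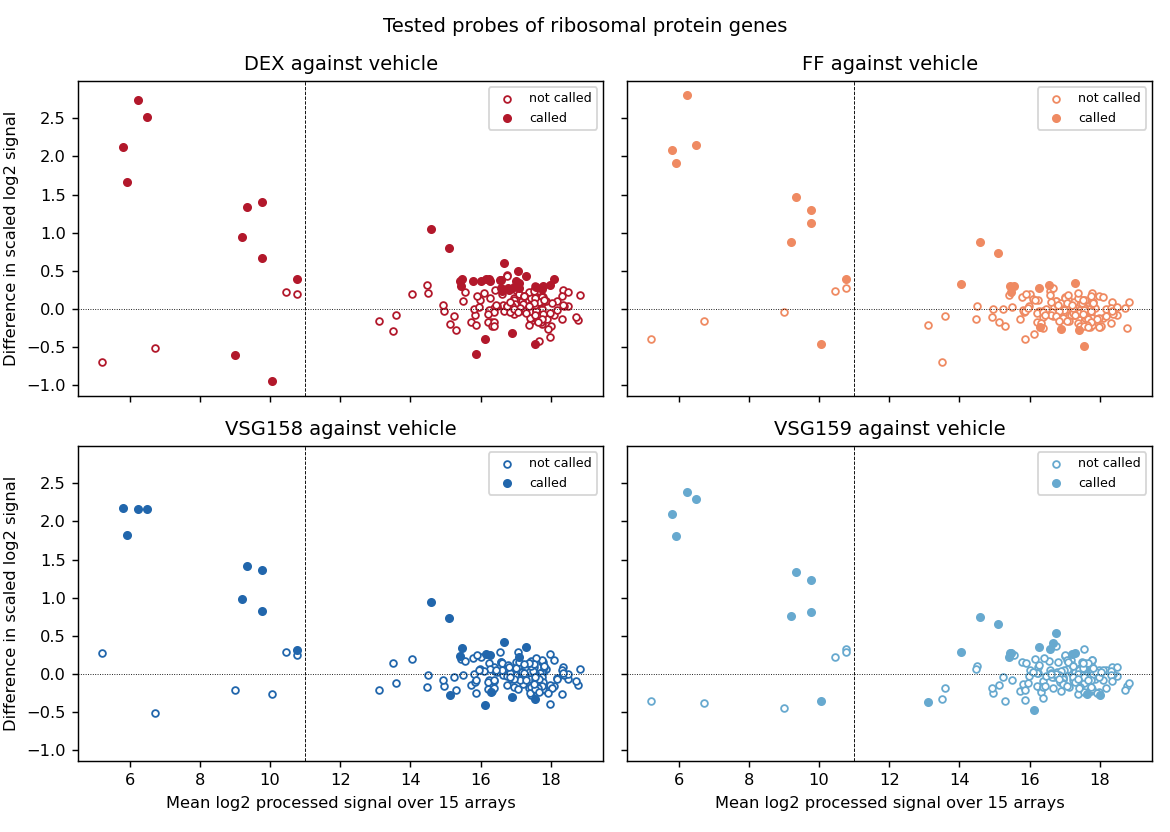
Difference in scaled log2 signal (y axis) against mean log2 processed signal over 15 arrays (x axis) for the 170 tested probes of ribosomal protein genes, in DEX, FF, VSG158 and VSG159 against vehicle. Filled points are called and the dashed line is the limit of 11; the dim probes left of it reach 2.80, the highest being those decided by the background filter, while the bright ones stay within 1.05 of 0.

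**Figure D5:**
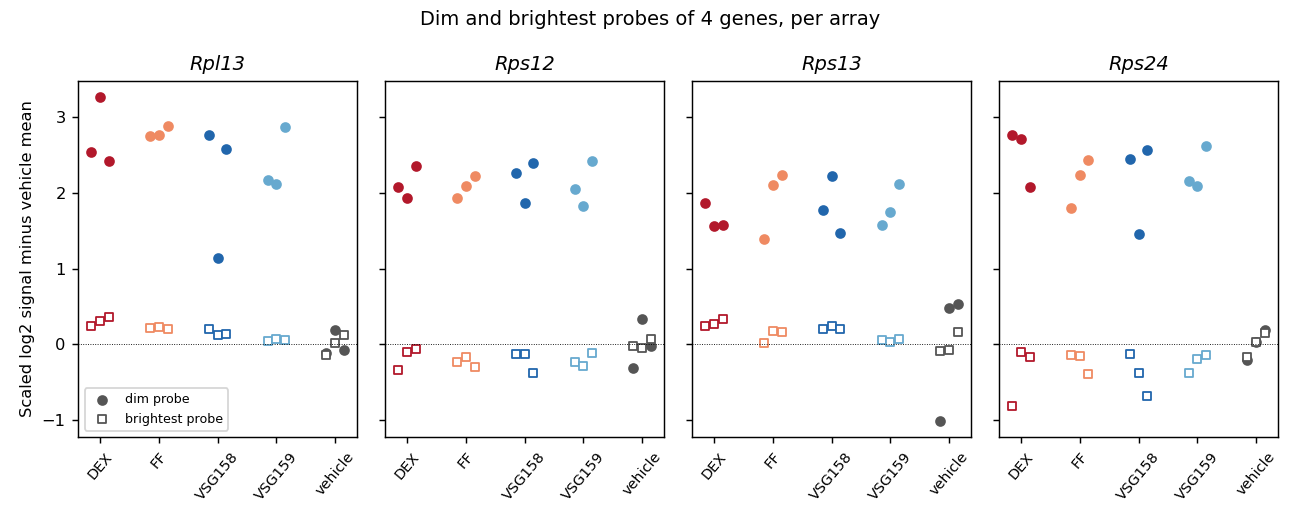
Scaled log2 signal minus that probe's vehicle mean (y axis) for the dim probe (filled circles) and the brightest probe (open squares) of Rpl13, Rps12, Rps13 and Rps24 on each array, by group (x axis). The dim probes were tested only because steroid arrays passed the background filter where 0 vehicle arrays did, so their separation follows from the filter, and the brightest probes stay between -0.81 and 0.36.

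Genes that make and run the ribosome were set beside its proteins, from lists chosen for their function or by gene name. Ribosome biogenesis factors went up: 17 of 18 measured genes rose in each comparison, beside 19.1% to 23.2% of all genes called higher. Their medians were 1.61, 1.60, 1.53 and 1.65 with DEX, FF, VSG158 and VSG159. Among them were Dkc1, the pseudouridine synthase of small nucleolar particles (2.95, 3.59, 3.44 and 3.42), Nolc1, a nucleolar phosphoprotein (2.66, 2.54, 2.79 and 2.71), Nop56, of the box C/D methylation particle (2.32, 2.46, 2.42 and 2.21), and Rrp9 (1.78, 2.31, 1.89 and 2.20). The exception was Ubtf, an RNA polymerase I factor, which fell by 0.48 with FF and by 0.48 with VSG158.

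Mitochondrial ribosomal protein genes rose in 52, 54, 53 and 47 of 77 cases with DEX, FF, VSG158 and VSG159, and 2 fell in each. Of all genes, 19.1% to 23.2% were called higher and 21.4% to 25% lower. The medians of the mitochondrial list were 0.48, 0.53, 0.51 and 0.41. Examples were Mrps2 (1.63, 1.46, 1.47 and 1.46), Mrpl12 (1.55, 1.83, 1.75 and 1.80), Mrpl42 (1.40, 1.58, 1.59 and 1.59) and Mrps17 (1.36, 1.20, 1.25 and 1.21). Among the cytosolic genes 3.8% to 20.3% were called, and the difference between the mitochondrial and cytosolic lists was not tested.

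Of 28 translation initiation factor genes, 17 rose and 1 fell with DEX, 13 and 1 with FF, 14 and 0 with VSG158, and 10 and 1 with VSG159 (medians 0.35, 0.33, 0.30 and 0.21). Eif3j1 rose by 1.02 with DEX, Eif2s1 by 0.83, Eif3e by 0.78 and Eif6, which keeps the subunits apart, by 0.51. Beside the counts of this list and of all lists that follow stand the 23.2%, 20.9%, 19.7% and 19.1% of all genes called higher. The shares called lower were 23.1%, 21.4%, 24.5% and 25%. The counts were not tested against these shares. Of 6 genes with an elongation factor symbol (Eef), which need not each act in elongation, 2, 2, 2 and 3 rose. With DEX these were Eef1e1 (2.11) and Eef1d (0.84). Of 10 other genes whose mRNAs carry the pyrimidine tract, 4, 2, 3 and 3 rose and 0, 0, 0 and 1 fell. The fall was that of Fau with VSG159 (-0.31). With DEX the rises were Hnrnpa1 (0.77), Nap1l1 (0.72), Npm1 (0.58) and Btf3 (0.42). Among 10 regulators of these mRNAs, 1, 2, 2 and 2 rose and 2, 0, 1 and 3 fell. Beside the shares of all genes given above, these counts are no result about the list, and its genes are named singly. Larp1, their binding protein, rose by 0.67, 0.75, 0.70 and 0.75. With DEX Eif4ebp2, a repressor of cap-dependent initiation, fell by 0.69 and the S6 kinase gene Rps6kb2 by 0.68, and the other 7 were not called. Eif4ebp2 was not called with the other steroids. Rps6kb2 fell by 0.63 with VSG158 and 0.54 with VSG159, and was not called with FF. The other S6 kinase gene, Rps6kb1, rose by 0.39 with FF, VSG158 and VSG159 each. With VSG159 Mtor fell by 0.47 and Eif4ebp1 by 0.30.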

How the data were processed

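The deposited scanner files hold, per spot, a processed signal intensity, background-subtracted by the authors' scanner software (Feature Extraction 10.7.3.1), with mm9 probe coordinates, per the file headers. The deposited value table holds log2 values (tool in the submitters' processing notes: limma, version not given in the sources used here) and was used as an alternative. Processed signals were scaled to each array's 75th percentile on the log2 scale, spots marked as outliers were set to missing, and spots of a probe were averaged. A probe was tested when well above background on at least 2 of 3 arrays of a group (28508 probes). All 15 arrays were fitted with limma 3.58.1 (R 4.3.3, the data.table package at version 1.17.8), by group alone, and 8 comparisons were tested two-sided. The fit was tested on simulated data. The members and lists were chosen with earlier results of these data known. Named genes are the 8 largest rises and falls per comparison among called members without overlap, stalk genes, reference and multifunctional genes, and paralogs with partners, and up to 4 genes per other list by adjusted p with DEX. Rps26, Fau, Rps6kb1, Mtor, Eif4ebp1, the 6 smaller DEX calls and the dim probes were named after their values were seen. Of 182 mapped probes, 7 of 4 genes (Rpl13, Rpl36, Rps27, Rps29) were designed to another chromosome than RefSeq gives the gene, so near-identical copies may share signal. The values of 1 called gene are not reported here. The precision is limited by the number of arrays. Alternatives covered scaling, background correction, filters, probe choice, slide, position, replicate number and left-out arrays.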

Additional observations from a re-analysis of the deposited data

How the results depend on the processing

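Rps27l kept its rise in all 4 comparisons under every alternative run, and its call under all but slide with position, as given above. Median scaling left 1 called gene each with DEX, FF, VSG158 and VSG159, 0 in the F test, and a median of -0.13 for VSG158 against VSG159. Quantile normalization gave 11 calls with FF, 13 with VSG158, 12 with VSG159 and 10 in the F test, medians of 0.016 for FF and 0.017 for VSG158 against DEX, and 0.24 for Rplp1 with VSG159. Normexp with quantile normalization gave 8 calls with FF, 10 with VSG158 and 2 with VSG159, a median of 0.052 for FF against DEX, and 0.24 and 0.31 for Rps18 with DEX and VSG158. The deposited value table gave 8, 10 and 2 calls, a median of 0.041, and 0.29 and 0.28 for Rps18 likewise. Without a filter on dim probes, where more genes are tested, 6 genes were called with DEX, 1 with VSG159 and 1 in the F test. With probes well above background on all 15 arrays there were 7 with FF, 6 with VSG158, 1 for VSG159 against DEX and 8 in the F test. Averaging a gene's probes gave 10 with FF, 10 with VSG158, 13 with VSG159 and 12 in the F test, and -0.0030 for Rps4x with DEX. Fitting only the groups compared gave 7 with DEX and 2 with VSG159. Slide as a fixed block gave 8 with FF, 12 with VSG159 and 1 for VSG158 against DEX, with -0.57 for Rpsa with DEX, and slide as a random block gave 6 with VSG158. Slide with array position gave 0 with DEX, FF and VSG159 and 1 in the F test, medians of -0.13 with DEX, -0.20 with FF, -0.11 with VSG159, and 0.090 and 0.055 for VSG158 and VSG159 against DEX. There DEX changes were -0.64 for Rps4x, -0.35 for Rps13, -0.29 for Rpl15, -0.10 for Rpl13, -0.083 for Rpl22 and 0.12 for Rpl34, and Rpl13 with FF was -0.075. Except where named, the cause was not tested.

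Correlations between the deviations of same-numbered samples over all genes ran from 0.07 to 0.24 for DEX against vehicle, and reached as low as -0.42 for VSG159 against vehicle. Over the ribosomal protein genes alone the 3 DEX correlations were 0.45, 0.36 and 0.34. In no comparison did every pair exceed 0.1 over all genes, so numbers were not taken to pair the samples. With the replicate block, 14, 3, 2 and 2 genes were called with DEX, FF, VSG158 and VSG159, and 2 in the F test.

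Leaving out 1 array at a time gave 7 to 20 calls with DEX, 3 to 7 with FF, 2 to 7 with VSG158, 2 to 12 with VSG159, 0 to 1 for VSG159 against DEX (1 without VSG158 replicate 3), 0 for the other comparisons between steroids and 2 to 9 in the F test. In the F test, 2 genes were called without vehicle 1, vehicle 2 or DEX 3, 3 without VSG159 1, VSG159 2, FF 1, DEX 1 or DEX 2, 8 without VSG159 3 and 9 without vehicle 3. Medians ranged from 0.03 to 0.15 with DEX, -0.08 to 0.03 with FF, -0.07 to 0.04 with VSG158, -0.04 to 0.06 with VSG159, -0.15 to -0.05 for FF against DEX, -0.14 to -0.04 for VSG158 against DEX, -0.11 to 0.00 for VSG159 against DEX and -0.04 to 0.07 for VSG158 against VSG159. With 3 arrays a group, small changes cannot be resolved, and dim probes near background are less certain than bright ones.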
